A study of Mus musculus with 6 samples.

Results

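The genes described here encode the nuclear-encoded subunits of the oxidative phosphorylation complexes, read in bulk RNA sequencing of the mouse RPE (retinal pigment epithelium), a single layer of pigmented cells behind the photoreceptors. Members were taken by name from the protein-coding genes of the deposited table: Nduf genes of the a, b, c, s and v series, Sdha to Sdhd, genes starting with Uqcr, Cox4 to Cox8 genes, and genes starting with Atp5. The rule used no measured value and gave 85 of 54532 listed genes, under 84 symbols because Atp5o is listed under 2 identifiers. Of these, 82 passed the filter on low counts. The other 3 held almost nothing: Cox7b2 had 1 count in WT 2 and 1 in Abca4KO 1, while Cox8c and the second Atp5o entry had 0 counts in every library. A count of 3, used as a floor, was worth 0.152 to 0.174 CPM, the unit in which counts are scaled to a common library size.

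Oxidative phosphorylation turns the energy of food into ATP at the inner mitochondrial membrane. Complex I takes electrons from NADH and complex II from succinate, complex III passes them from ubiquinol to cytochrome c, and complex IV gives them to oxygen. Complexes I, III and IV pump protons, and complex V, the ATP synthase, lets the protons flow back and makes ATP. Most subunits are nuclear genes and a small set is encoded by mitochondrial DNA, so that each complex other than II is built from both genomes. The RPE is known for many mitochondria and a high reliance on their respiration, while it passes glucose on to the photoreceptors.

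The 3 WT libraries came from mice of the Jackson 129S1/SvlmJ strain, and the 3 Abca4-/- libraries from the Jackson line Abca4tm1Ght/J (here Abca4KO). Both lines carried the Leu450 form of Rpe65, were kept in 12-h cyclic light on a standard diet, and were sampled 5 h after light onset. Line and genotype change together, and the labels used here give no age. Abca4 encodes a retinoid transporter of photoreceptor discs that the RPE also expresses. It was at 955, 932 and 968 CPM in WT and 32.6, 39.1 and 36.8 CPM in Abca4KO, so each library matched its label. The log2 fold change was -4.72 with an SE of 0.10 (edgeR's quasi-likelihood test with Benjamini-Hochberg adjustment, adjusted p = 4.483e-06).

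Libraries held between 17047286 and 19841307 counts, of which the members took between 0.690% and 0.778%. All 12 RPE marker genes were detected and summed to 42654, 35119 and 44163 CPM in WT and 42337, 39888 and 42504 CPM in Abca4KO, lowest in WT 2. Markers of other cells were present too. The 19 rod markers summed to 2745, 1368 and 2560 CPM in WT and 4659, 1809 and 1939 CPM in Abca4KO, lowest in WT 2 and highest in Abca4KO 1. The 15 endothelial markers summed to 500, 687 and 410 CPM in WT and 681, 675 and 1039 CPM in Abca4KO. All 15 log2 fold changes were above 0, against 47.8% of all genes tested. Of the 15, 8 were higher at an unadjusted p under 0.05, against 3.15% of all genes tested. In bulk RNA, fewer cells of a type and less RNA per cell cannot be told apart.

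The start regions of the members are shown first, because NRF1, GABP (also called NRF2) and YY1 are textbook regulators of these genes. RefSeq promoters of build GRCm38.p6, from 250 bases before to 50 bases after a start site, were found for 68 member genes. They made 74 entries, in which the same Atp5o promoter was listed under each of its identifiers. GCGCANGCG (NRF1), CCGGAAG (GABP) and AAGATGGC (YY1) were searched on both strands. The NRF1 letters were in a promoter of 20 of the 68 member genes (29.4%). The share was 7.03% of all 27025 genes with a promoter and 13.3% of such genes tested here. The GABP letters were found for 23.5% of member genes, against 9.93% of all genes and 17.5% of tested genes. The YY1 letters were found for 14.7%, against 3.19% and 4.62%. A match is a run of letters and not a shown binding site.

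The promoters below belong to members the results turn on, with matches to any of the 3 motifs in capitals. Cox6a1 had the smallest p among members that were higher in Abca4KO, and Ndufa12 the smallest p of all members. Cox8a and Cox8b are a widely expressed and a muscle form of one subunit.
Cox6a1, chr5:115348909-115349208, minus strand: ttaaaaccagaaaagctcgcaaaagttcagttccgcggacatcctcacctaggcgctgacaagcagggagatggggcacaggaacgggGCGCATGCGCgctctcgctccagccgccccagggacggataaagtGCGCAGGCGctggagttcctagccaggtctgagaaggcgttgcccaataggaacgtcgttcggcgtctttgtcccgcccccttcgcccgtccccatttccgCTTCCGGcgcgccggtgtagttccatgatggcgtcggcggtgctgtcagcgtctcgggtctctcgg
Ndufa12, chr10:94198785-94199084, plus strand: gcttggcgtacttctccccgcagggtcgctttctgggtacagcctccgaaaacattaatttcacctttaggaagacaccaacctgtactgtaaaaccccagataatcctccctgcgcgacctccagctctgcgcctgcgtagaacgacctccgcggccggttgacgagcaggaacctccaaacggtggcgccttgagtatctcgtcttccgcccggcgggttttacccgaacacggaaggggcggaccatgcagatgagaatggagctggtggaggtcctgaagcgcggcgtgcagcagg
Ndufs3, chr2:90904672-90904971, minus strand: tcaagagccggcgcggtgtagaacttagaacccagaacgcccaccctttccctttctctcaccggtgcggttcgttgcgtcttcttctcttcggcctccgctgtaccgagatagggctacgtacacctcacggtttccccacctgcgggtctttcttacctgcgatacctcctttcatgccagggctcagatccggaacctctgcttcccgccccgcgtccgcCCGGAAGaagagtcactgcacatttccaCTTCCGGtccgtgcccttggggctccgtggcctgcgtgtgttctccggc
Cox8a, chr19:7217567-7217866, minus strand: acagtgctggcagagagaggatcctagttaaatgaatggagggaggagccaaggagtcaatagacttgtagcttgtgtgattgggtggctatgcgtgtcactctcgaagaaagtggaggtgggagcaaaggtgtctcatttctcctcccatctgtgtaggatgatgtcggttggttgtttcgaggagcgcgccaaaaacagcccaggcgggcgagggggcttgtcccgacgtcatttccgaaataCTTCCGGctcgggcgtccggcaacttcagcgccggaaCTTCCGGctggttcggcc
Cox8b, chr7:140900397-140900696, minus strand: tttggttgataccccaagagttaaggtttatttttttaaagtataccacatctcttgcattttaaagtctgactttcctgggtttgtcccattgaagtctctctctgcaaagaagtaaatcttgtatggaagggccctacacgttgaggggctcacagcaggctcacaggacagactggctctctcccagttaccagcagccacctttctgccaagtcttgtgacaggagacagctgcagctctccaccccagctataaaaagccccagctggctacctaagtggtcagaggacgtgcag
The Cox6a1 promoter held 3 NRF1 matches, of which a pair overlaps because its letters read the same on both strands, and 1 GABP match. The Ndufs3 promoter held the GABP letters once on each strand and that of Cox8a held them 2 times. None of the 3 motifs was found in these windows of Ndufa12 and Cox8b. The Ndufa12 window lies inside the deposited gene, which starts at 94198720, so the bases before that start were not searched.

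The transcript levels of the respiratory chain were close to each other in the 2 genotypes. None of the 82 members passed the threshold, a Benjamini-Hochberg adjusted p under 0.05 over the 17340 genes tested by edgeR. Over all those genes 8 passed (0.0461%). At an unadjusted p under 0.05, 4 members were higher in Abca4KO (Cox6a1, Ndufs3, Ndufb11 and Ndufa4l2), where 3.15% of all genes tested were, and 1 was lower (Ndufa12), where 3.87% were. These counts over 82 members are near the shares over all genes.

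The members lay slightly above 0 as a group. A positive log2 fold change was measured for 57 of 82 members (69.5%), against 47.8% of all genes tested, and the median was 0.04 against -0.01. The spread was narrow, since 70 members lay within 0.2 of 0 on the log2 scale and 3 lay beyond 0.5 (Ndufa12, Ndufa4l2 and Cox4i2). The median size of the change was 0.058 in members and 0.15 in all genes, and the median SE was 0.10 and 0.18. The 3 libraries of each genotype stood apart for 7 members higher in Abca4KO (Cox6a1, Ndufs3, Ndufb11, Sdhb, Cox6b2, Ndufa9 and Atp5l), against 5.93% of all genes, and for 2 that were lower (Ndufa12 and Ndufv3), against 6.85%.

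The offset differed between libraries. Abca4KO 2 and Abca4KO 3 each held the highest value of 26 members, and Abca4KO 1 that of 3. The lowest value lay in Abca4KO 1 for 22 members, in WT 2 for 22 and in WT 3 for 20. Without Abca4KO 1 the median of the members was 0.075 and 66 were positive, and without Abca4KO 3 it was 0.029 and 50 were positive. The summed level of the members was 7462, 7064 and 7219 CPM in WT and 7167, 7476 and 7710 CPM in Abca4KO, or 7248 ± 201 CPM (SD, n = 3) and 7451 ± 272 CPM (SD, n = 3), a ratio of 1.03. The sums of the genotypes overlapped. Rod markers were highest in Abca4KO 1 and lowest in WT 2, and each of these libraries held the lowest value of 22 members. The part of rod RNA in these values was not tested beyond the fit with a rod covariate, in which 59 members were positive. Other marker lists differed as well. The 7 melanocyte markers, of which several are also pigment genes of the RPE, summed to 5898, 4315 and 6715 CPM in WT and 6388, 8213 and 8014 CPM in Abca4KO. The 13 macrophage markers summed to 1375, 2221 and 1078 CPM in WT and 1668, 2815 and 2223 CPM in Abca4KO, and the 10 fibroblast markers to 1761, 1720 and 1457 CPM in WT and 1791, 2240 and 1891 CPM in Abca4KO. All 3 sums were highest in Abca4KO 2 and that of fibroblasts did not overlap between genotypes. Of the genes tested in these lists, 4 of 7, 9 of 13 and 8 of 10 were positive, against 47.8% of all genes tested. The part of these cells in the members' values was not tested.

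**Figure D1:**
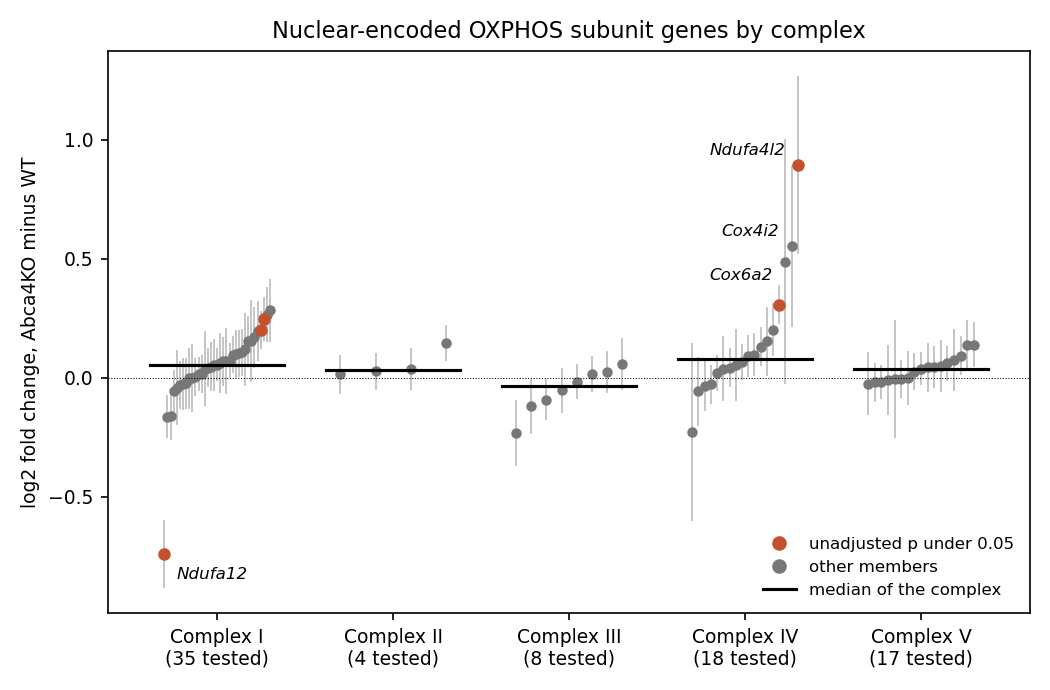
Log2 fold change (Abca4KO minus WT, vertical axis) of each tested member, grouped by complex on the horizontal axis and ordered by value, with bars for the SE. Orange points had an unadjusted p under 0.05 and black lines mark the median of each complex. Most points lie within 0.2 of 0, with Ndufa12 at -0.74 and Ndufa4l2 at 0.89 at the ends.

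Complex I had 35 members, all tested, with 25 positive and a median log2 fold change of 0.06. Their summed level was 2021, 1861 and 1897 CPM in WT and 1906, 2045 and 2092 CPM in Abca4KO. The sums overlapped, at 1926 ± 84.1 CPM (SD, n = 3) and 2014 ± 96.6 CPM (SD, n = 3). Ndufs3 and Ndufb11 were higher and Ndufa12 was lower at an unadjusted p under 0.05, and none passed after adjustment.

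The core subunits of complex I carry the electrons from NADH to ubiquinone. Ndufv1 binds NADH and the flavin, and was at 81.4, 80.9 and 78.0 CPM in WT and 78.4, 84.7 and 79.6 CPM in Abca4KO (log2 fold change 0.015, SE 0.07). Ndufs1, which holds iron-sulfur clusters, was at 83.4, 67.7 and 85.5 CPM in WT and 82.9, 73.5 and 75.8 CPM in Abca4KO (-0.027, SE 0.11). Neither gene separated the genotypes.

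Ndufs3, Ndufs7 and Ndufs8 belong to the arm that passes electrons to the quinone, and Ndufs7 and Ndufs8 hold its iron-sulfur clusters. Ndufs3 was at 56.9, 57.7 and 55.6 CPM in WT and 63.9, 75.0 and 63.1 CPM in Abca4KO. The genotypes did not overlap (log2 fold change 0.25, SE 0.09, unadjusted p = 0.02941, adjusted p = 0.691 by edgeR). Ndufs3 overlaps 88 exon bases of Kbtbd4 on the other strand, which held 761 counts against 6981, so its count is uncertain to that extent. Ndufs8 was at 54.3, 47.0 and 47.1 CPM in WT and 51.4, 61.4 and 65.6 CPM in Abca4KO (0.26, SE 0.12), with Abca4KO 1 inside the WT range. Ndufs7 had a log2 fold change of 0.28 (SE 0.13) and the same library inside the WT range.

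The 7 core subunits of complex I in the list summed to 557, 519 and 541 CPM in WT and 569, 605 and 588 CPM in Abca4KO, so that every Abca4KO library lay above every WT library, with 6 of 7 positive and a median of 0.15. This grouping was made with the values known and was given no test. Among the 28 accessory subunits, which surround the core and are needed for assembly and stability, 19 were positive and the median was 0.05. Ndufb11, an X-linked subunit of the membrane arm, was at 134, 119 and 126 CPM in WT and 142, 140 and 155 CPM in Abca4KO. Its libraries did not overlap, and the log2 fold change was 0.20 (SE 0.08, unadjusted p = 0.03886, adjusted p = 0.701 by edgeR). The gene shares 117 exon bases with Rbm10 on the other strand, which held 5595 counts against 15274, and reads of the pair cannot be told apart without strand. Ndufc2, a membrane-arm subunit with the second-highest level per length in complex I, was at 63.4, 59.2 and 64.6 CPM in WT and 67.8, 59.7 and 73.4 CPM in Abca4KO. Ndufv3, an accessory subunit of the NADH-binding module, was at 106, 92.0 and 90.3 CPM in WT and 85.4, 81.5 and 90.1 CPM in Abca4KO, lower in every Abca4KO library by a narrow gap (-0.16, SE 0.09).

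Ndufa9, an accessory subunit near the quinone site, was at 47.8, 44.2 and 48.7 CPM in WT and 50.3, 49.2 and 51.0 CPM in Abca4KO. Its genotypes stood just apart (0.097, SE 0.08, unadjusted p = 0.253 by edgeR). Ndufb3, a membrane-arm subunit, was at 41.1, 38.8 and 37.1 CPM in WT and 32.4, 33.3 and 39.2 CPM in Abca4KO, so that Abca4KO 3 lay inside the WT range (-0.16, SE 0.10). Ndufb7, on the intermembrane side of the membrane arm, was at 52.1, 57.6 and 49.0 CPM in WT and 51.4, 69.2 and 61.3 CPM in Abca4KO, with Abca4KO 1 inside the WT range (0.20, SE 0.12). Ndufs4, whose loss causes Leigh syndrome, was at 62.4, 49.9 and 51.4 CPM in WT and 55.6, 57.2 and 56.1 CPM in Abca4KO, which overlap (0.046, SE 0.10).

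Ndufa12 encodes an accessory subunit at the joint between the NADH and quinone modules of complex I, and had the lowest log2 fold change among the members. The gene lies on the plus strand of mm10 at chr10:94198720-94221443. It was at 38, 30.2 and 31.0 CPM in WT and 18.8, 22.8 and 17.8 CPM in Abca4KO, or 33.1 ± 4.27 CPM and 19.8 ± 2.61 CPM (SD, n = 3 each). Every Abca4KO library lay below every WT library, with a log2 fold change of -0.74 (SE 0.14, unadjusted p = 0.001074). The adjusted p was 0.393 in edgeR, 0.00863 in DESeq2 and 0.0482 in limma-voom with sample weights, and ranged from 0.00863 to 0.976 over all settings tried, so the call depends on the tool.

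The count of Ndufa12 is also uncertain because of a copy. The processed pseudogene Gm15920 (chr5:130188395-130188796, plus strand) is 99.5% identical to the Ndufa12 transcript over 402 bases and held 2351 counts against 2975 in Ndufa12 over the 6 libraries. Gm15920 was at 22.0, 18.5 and 21.1 CPM in WT and 18.6, 22.7 and 22.7 CPM in Abca4KO, with overlapping genotypes and a log2 fold change of 0.05 (SE 0.13). With both counts added together, a setting chosen after the data were seen, the level was 60.003, 48.7 and 52.2 CPM in WT and 37.4, 45.4 and 40.6 CPM in Abca4KO. The 2 genotypes still did not overlap, while the difference was smaller, at -0.38 on the log2 scale (SE 0.11, unadjusted p = 0.01128, adjusted p = 0.616 by edgeR). How the authors' counting divided reads between the gene and its copy was not tested.

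**Figure D2:**
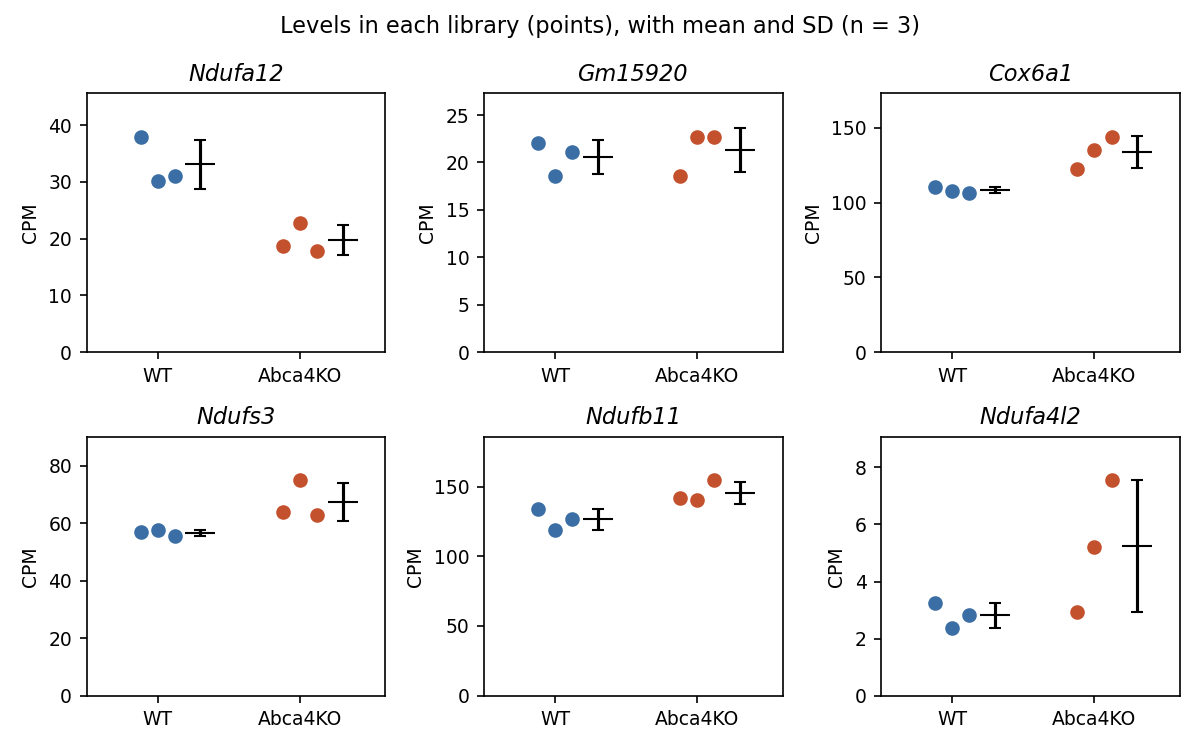
Level in CPM (vertical axis, from 0) in each library for the 5 members with an unadjusted p under 0.05 and for Gm15920, the pseudogene copy of Ndufa12. Points are libraries, and bars give the mean and SD of 3. Ndufa12 lies below WT in every Abca4KO library while Gm15920 overlaps, and Abca4KO 1 overlaps WT for Ndufa4l2.

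Ndufaf2, an assembly factor that is a paralog of Ndufa12 and binds the same place before Ndufa12 takes it, was at 7.33, 3.76 and 6.26 CPM in WT and 7.86, 9.60 and 8.02 CPM in Abca4KO. It did not overlap between genotypes and was higher, by 0.55 on the log2 scale (SE 0.27, adjusted p = 0.741 by edgeR). Around Ndufa12, 17 other genes with a start within 1 Mb were tested, of which 1 was higher and 1 lower at an unadjusted p under 0.05, where 3.15% and 3.87% of all genes tested were. The nearest tested gene before it, Nr2c1, had a log2 fold change of 0.16 (SE 0.16). The nearest after it, Tmcc3, starts 113 kb away and had one of -0.10 (SE 0.07). It was at 78.7, 77.4 and 83.5 CPM in WT and 77.3, 72.7 and 73.7 CPM in Abca4KO, lower without overlap by a narrow gap. Cep83os, a noncoding RNA that starts 490 kb away and shares a start region with Cep83, was at 7.02, 9.29 and 7.24 CPM in WT and 23.4, 22.8 and 23.1 CPM in Abca4KO and rose by 1.56 on the log2 scale (adjusted p = 0.0268 by edgeR). Since the mice are of different lines, an effect of the Abca4 allele and of other line differences cannot be told apart here.

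**Figure D3:**
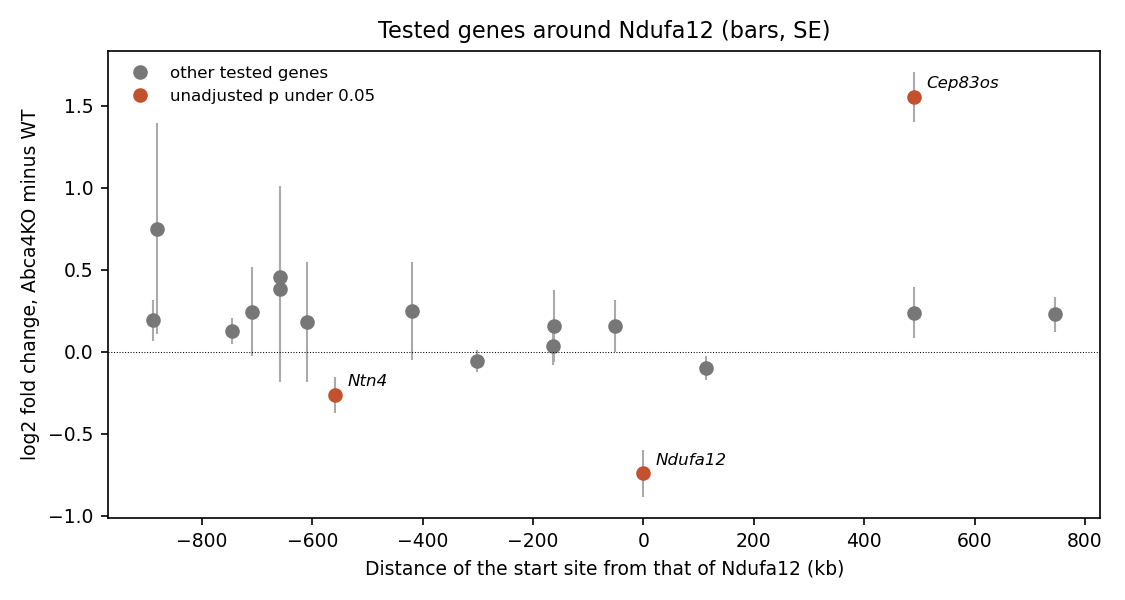
Log2 fold change (Abca4KO minus WT, vertical axis, bars for SE) of tested genes against the distance of their start from that of Ndufa12 in kb (horizontal axis). Ndufa12 at -0.74, Ntn4 at -0.26 and Cep83os at 1.56 had an unadjusted p under 0.05. The nearest tested gene before Ndufa12, Nr2c1, lies above 0, and the nearest after it, Tmcc3, lies below 0.

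Complex II, which also belongs to the citrate cycle and has no mitochondrially encoded subunit, had 4 members, all positive, with a median of 0.03. Its summed level was 516, 480 and 525 CPM in WT and 505, 528 and 545 CPM in Abca4KO, which overlap. Sdhb, the iron-sulfur subunit, was at 96.1, 96.2 and 93.2 CPM in WT and 99.96, 113 and 103 CPM in Abca4KO. Its libraries did not overlap (log2 fold change 0.15, SE 0.08, unadjusted p = 0.0978 by edgeR). Sdha, the flavoprotein that oxidises succinate, was at 228, 207 and 248 CPM in WT and 228, 225 and 247 CPM in Abca4KO (0.037, SE 0.09). The membrane anchors Sdhc and Sdhd had log2 fold changes of 0.027 (SE 0.08) and 0.015 (SE 0.08), each with overlapping libraries.

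Complex III was the complex with a median below 0, at -0.03 over 8 tested members of which 3 were positive. Its summed level was 705, 695 and 680 CPM in WT and 663, 679 and 695 CPM in Abca4KO, and no member reached an unadjusted p of 0.05 or separated the genotypes. Uqcrb, a small subunit beside the quinone-binding site, was at 51.2, 38.9 and 40.7 CPM in WT and 34.8, 34.4 and 42.2 CPM in Abca4KO. WT 1 stood above the rest and Abca4KO 3 lay inside the WT range (-0.23, SE 0.14). The core proteins Uqcrc1 and Uqcrc2 had log2 fold changes of 0.016 (SE 0.08) and -0.092 (SE 0.09).

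Uqcrfs1, the Rieske iron-sulfur protein that accepts electrons from ubiquinol, was at 95.3, 106 and 99.3 CPM in WT and 98.7, 101 and 98.0 CPM in Abca4KO (-0.016, SE 0.07). The small subunits Uqcr11 and Uqcrq had log2 fold changes of -0.12 (SE 0.11) and -0.053 (SE 0.09). Uqcr10 and Uqcrh, the hinge protein near cytochrome c1, stood highest in the complex per length, at 112 and 81.8 CPM per kilobase over all libraries, and had log2 fold changes of 0.058 (SE 0.11) and 0.024 (SE 0.09).

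**Figure D4:**
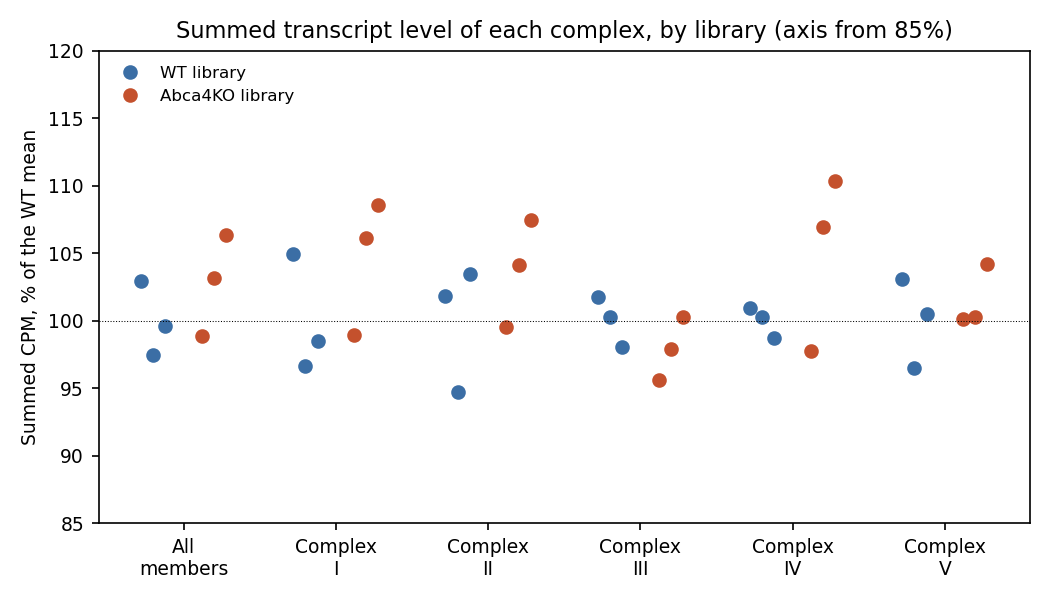
Summed CPM of all members and of the members of each complex (horizontal axis), as a percentage of the WT mean (vertical axis, from 85%). Points are single libraries. The genotypes overlap in every column, and Abca4KO 1 lies below the other Abca4KO libraries in each.

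Complex IV had 20 members, of which 18 were tested, counting Ndufa4 and Ndufa4l2, since Ndufa4 was shown to belong to this complex. Of these, 14 were positive, with a median of 0.08. The summed level was 1369, 1360 and 1339 CPM in WT and 1326, 1450 and 1497 CPM in Abca4KO, so that Abca4KO 1 lay below WT and the other Abca4KO libraries above it. Without Abca4KO 1 the median of complex IV was 0.14. Cox6a1, Ndufa4l2 and no other member of this complex had an unadjusted p under 0.05.

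Cox6a1, the widely expressed form of a subunit that helps regulate the enzyme, was at 111, 108 and 107 CPM in WT and 123, 135 and 144 CPM in Abca4KO. The genotypes did not overlap (log2 fold change 0.31, SE 0.08, unadjusted p = 0.006597, adjusted p = 0.589 by edgeR). Its promoter, shown above, was the single one of 14 in complex IV with an NRF1 match. Cox6a2, the heart and muscle form, was at 1.57, 3.87 and 4.90 CPM in WT and 4.06, 7.69 and 2.73 CPM in Abca4KO, with a spread that covers both genotypes. Cox6a1 held 96.8% ± 1.58 of the pair's level per length in WT and 96.4% ± 1.83 in Abca4KO (SD, n = 3 each).

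Ndufa4l2 is a paralog of Ndufa4 that is known to be induced by low oxygen and to be abundant in pericytes. It was at 3.25, 2.36 and 2.83 CPM in WT and 2.94, 5.21 and 7.55 CPM in Abca4KO, where Abca4KO 1 lay inside the WT range. The log2 fold change was 0.89 (SE 0.37, unadjusted p = 0.04679, adjusted p = 0.706 by edgeR). Ndufa4 itself, at 153, 130 and 155 CPM in WT and 152, 159 and 156 CPM in Abca4KO, had a log2 fold change of 0.093 (SE 0.09). Ndufa4l2 made up 2.37% ± 0.207 of the pair's level per length in WT and 4.04% ± 1.69 in Abca4KO (SD, n = 3 each), with overlapping libraries. It shares 32 exon bases with Shmt2 on the other strand, which held 2187 counts against 447.

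Cox4i2, a low-oxygen form of subunit 4 that is also known from pericytes, was at 1.83, 3.76 and 2.45 CPM in WT and 3.30, 3.92 and 4.59 CPM in Abca4KO, which overlap (0.55, SE 0.34). Cox4i1, the common form, was at 267, 259 and 269 CPM in WT and 250, 277 and 277 CPM in Abca4KO (0.019, SE 0.07). The 12 mural cell markers, which include pericyte genes, summed to 749, 774 and 639 CPM in WT and 882, 828 and 932 CPM in Abca4KO without overlap. Of the 11 tested, 9 were positive, against 47.8% of all genes tested. Rgs5, a marker of pericytes, was at 286, 316 and 190 CPM in WT and 391, 397 and 433 CPM in Abca4KO. Cspg4, also a pericyte marker, stood lower in Abca4KO, at 77.3, 72.2 and 73.8 CPM in WT and 60.7, 54.2 and 65.0 CPM in Abca4KO, without overlap. The part of mural and endothelial RNA in the values of Ndufa4l2 and Cox4i2 was not tested.

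The muscle forms of complex IV were read beside 12 skeletal muscle markers, of which 11 were tested. These markers summed to 306, 476 and 1086 CPM in WT and 833, 1021 and 729 CPM in Abca4KO, lowest in WT 1 and WT 2 and overlapping between genotypes, and their part in the next values was not tested. Cox7a1, the muscle form of subunit 7a, was at 1.73, 4.295 and 3.48 CPM in WT and 2.54, 2.89 and 2.67 CPM in Abca4KO. It took 4.02% ± 1.53 of the level per length of Cox7a1, Cox7a2 and Cox7a2l in WT and 3.16% ± 0.0956 in Abca4KO (SD, n = 3 each). Cox7a2, the common form, took 50.7% in both genotypes, and Cox7a2l, which links complexes III and IV into supercomplexes, took 45.2% and 46.1%.

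Cox8b, the muscle form of subunit 8, was at 42.7, 33.8 and 47.2 CPM in WT and 44.2, 38.6 and 44.3 CPM in Abca4KO. Per length it stood at 116 CPM per kilobase over all libraries, above the muscle forms Cox6a2 at 6.08 and Cox7a1 at 5.49. It made up 20.7% ± 3.49 of the level per length of Cox8a and Cox8b in WT and 21.6% ± 2.05 in Abca4KO (SD, n = 3 each). Cox8b was lowest in WT 2 and the muscle markers were lowest in WT 1, while both were highest in WT 3. The part of muscle RNA in the Cox8b values was not tested. Cox8a, the common form, was at 250, 246 and 224 CPM in WT and 213, 222 and 268 CPM in Abca4KO (-0.034, SE 0.11). Cox6b2, known as the testis form of subunit 6b, was at 22.4, 22.2 and 19.2 CPM in WT and 24.8, 25.6 and 22.9 CPM in Abca4KO. Its libraries did not overlap, by a narrow gap (log2 fold change 0.20, SE 0.11, unadjusted p = 0.114 by edgeR). It made up 11.7% ± 0.825 of the Cox6b1 and Cox6b2 level per length in WT and 12.7% ± 0.842 in Abca4KO (SD, n = 3 each), which overlap.

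The remaining tested subunits of complex IV lay close to 0. Cox6b1, the common form of subunit 6b, was at 105, 100.2 and 102 CPM in WT and 101, 113 and 108 CPM in Abca4KO (0.067, SE 0.07). Cox7b, an X-linked subunit, was at 55.4, 63.2 and 59.0 CPM in WT and 62.5, 58.1 and 62.5 CPM in Abca4KO (0.043, SE 0.08), beside a paralog, Cox7b2, that was under the floor in every library. Cox5a and Cox5b, which sit on the matrix side of the enzyme, had log2 fold changes of 0.055 (SE 0.15) and -0.057 (SE 0.15), and Cox6c and Cox7c had 0.097 (SE 0.09) and -0.027 (SE 0.08). All of these overlapped between genotypes.

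**Figure D5:**
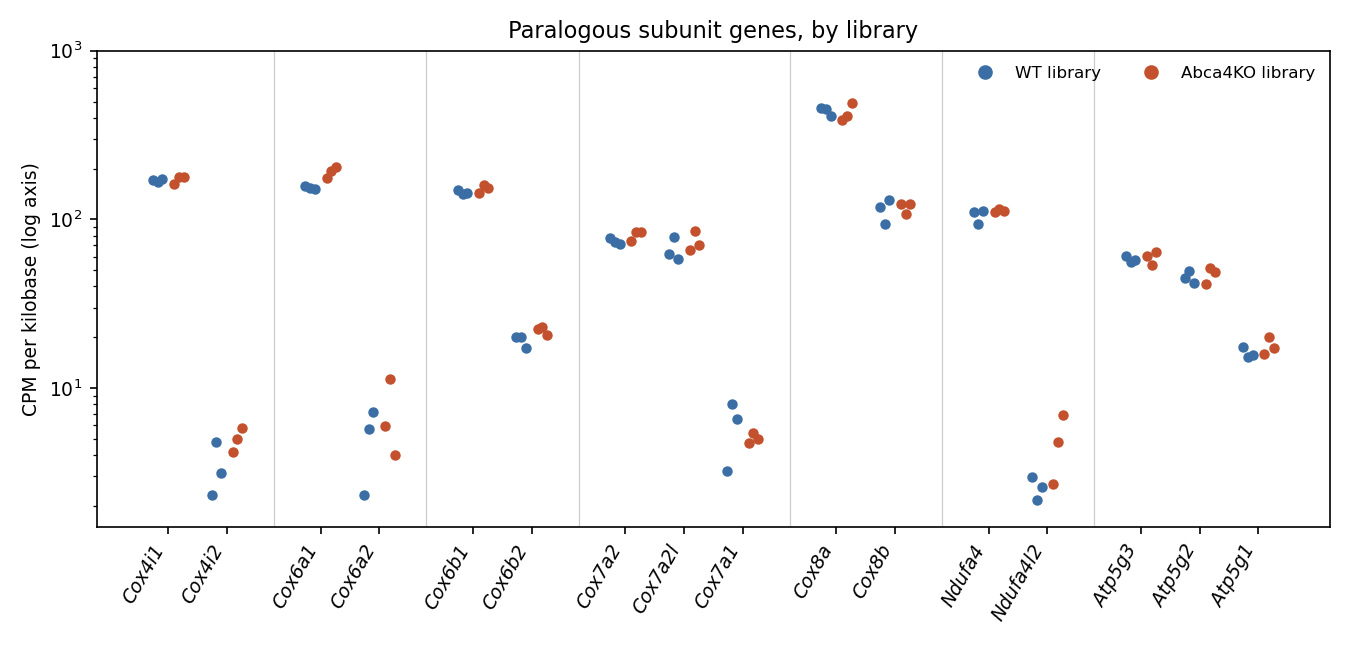
Level per length (CPM per kilobase, log axis) of paralogous subunit genes in each library, with WT in blue and Abca4KO in orange. Common forms such as Cox4i1, Cox6a1 and Cox8a stand above their tissue-restricted paralogs, Cox8b and Cox6b2 lie closer to their partners than Cox4i2, Cox6a2 and Ndufa4l2, and the genotypes differ little beside these gaps.

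Complex V had 18 listed members, of which 17 were tested, with 11 positive and a median of 0.04. Its summed level was 2851, 2668 and 2778 CPM in WT and 2769, 2774 and 2882 CPM in Abca4KO, which overlap. The F1 head, which makes ATP, was nearly level: the median log2 fold change of its 5 subunits was 0.00023. Atp5a1, the alpha subunit, was at 672, 619 and 687 CPM in WT and 661, 613 and 678 CPM in Abca4KO (-0.019, SE 0.08). Atp5b, the catalytic beta subunit, was at 763, 684 and 749 CPM in WT and 742, 743 and 750 CPM in Abca4KO (0.025, SE 0.08).

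The 3 Atp5g genes encode the same c subunit of the rotating membrane ring with different import signals. Atp5g3 took 48.4% of their level per length in WT and 47.9% in Abca4KO, Atp5g2 took 38.1% and 37.9%, and Atp5g1 took 13.5% and 14.3%. These shares lay within the spread of the libraries. They rest on gene models of 4912 bases for Atp5g1, 1675 for Atp5g2 and 2181 for Atp5g3, and a long model lowers a share. Without scaling by length the means were 79.4, 76.4 and 126 CPM in WT and 87.3, 79.1 and 130 CPM in Abca4KO, in that order. The processed pseudogene Gm10039, 99.76% identical to Atp5g1 over 411 bases, held 2498 counts against 9371. Atp5g1 had a log2 fold change of 0.14 (SE 0.11) and Atp5mpl, a small membrane subunit, one of 0.14 (SE 0.09), each with overlapping libraries. Atp5l, a subunit of the membrane part, was at 79.7, 80.3 and 75.9 CPM in WT and 80.7, 90.5 and 80.6 CPM in Abca4KO. The gap between its genotypes was narrow, and the processed pseudogene Gm10221, identical over 309 aligned bases, held 2412 counts against its 9143. Atp5h, a subunit of the outer stalk that holds the head still, was at 140, 135 and 126 CPM in WT and 135, 140 and 144 CPM in Abca4KO, which overlap (0.061, SE 0.07). Of the other stalk subunits, Atp5o had a log2 fold change of 0.073 (SE 0.13) and Atp5j one of -0.019 (SE 0.07). Atp5s has a matching name but is not a subunit of the enzyme, and its log2 fold change was -0.0080 (SE 0.15).

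Levels across the members differed far more than those between genotypes. Per length of the deposited gene model, Cox8a stood highest at 435 CPM per kilobase over all libraries, followed by Atp5a1 at 209, Atp5b at 174, Cox6a1 at 173 and Cox4i1 at 172. The last 3 lay within a few CPM per kilobase of each other, so their order is not beyond the spread of the libraries. Ndufb2 was the lowest of the tested members over all libraries, at 2.99 CPM per kilobase, and a long gene model lowers such a value.

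The 13 mitochondrially encoded subunits, the partners of these members, had 12 positive log2 fold changes and a median of 0.16. They summed to 71883, 78197 and 55804 CPM in WT and 73117, 88990 and 59163 CPM in Abca4KO, which overlap, with replicate 3 of each genotype lowest. mt-Atp6, a proton-channel subunit of complex V, was at 141, 161 and 118 CPM in WT and 195, 176 and 178 CPM in Abca4KO. Its libraries did not overlap, at a log2 fold change of 0.38 (SE 0.12, unadjusted p = 0.0142, adjusted p = 0.616 by edgeR). The median level of the 13 was between 11.4 and 11.9 log2 CPM in WT and between 11.6 and 12.2 in Abca4KO. The level of mt-Atp6 was far below that median, and the reason was not tested. None of the 13 passed the threshold.

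Assembly factors, which build the complexes without being part of them, were tested for 47 genes. Of these 31 were positive, the median was 0.04, 3 were higher at an unadjusted p under 0.05 (Tmem126b, Cox17 and Tmem70) and 0 were lower, where 3.15% and 3.87% of all genes were. Without overlap, 11 were higher and 2 lower (Ndufaf6 and Cox20), where 5.93% and 6.85% of all genes were. Summed, they reached 1014 ± 16.6 CPM in WT against 1066 ± 24.1 CPM (SD, n = 3 each) in Abca4KO, a ratio of 1.05. Cox17, a copper carrier for complex IV, was at 6.07, 6.07 and 6.42 CPM in WT and 8.17, 8.51 and 10.4 CPM in Abca4KO (log2 fold change 0.54, SE 0.18, adjusted p = 0.639 by edgeR). Tmem126b, which helps assemble complex I, was at 24.7, 24.7 and 27.6 CPM in WT and 30.7, 34.3 and 29.9 CPM in Abca4KO (0.30, SE 0.10). Neither gene overlapped between genotypes. Cox20, which helps mature a complex IV subunit, was lower, at 1.05, 1.77 and 1.25 CPM in WT and 0.812, 0.774 and 0.872 CPM in Abca4KO (-0.72, SE 0.40), and Ndufaf6, a complex I assembly factor, had a log2 fold change of -0.18 (SE 0.23).

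The other lists of the pathway lay near 0. Of 14 genes for electron carriers and quinone synthesis, 7 were positive with a median of -0.0064, and of 18 citrate cycle genes 8 were positive with a median of -0.03, with 0 in either list at an unadjusted p under 0.05. Of 19 regulators 13 were positive with a median of 0.06, over a range from -0.31 to 0.45. Without overlap, 1 of the regulators was higher and 2 were lower, where 5.93% and 6.85% of all genes were. Gabpb2, a GABP subunit, was lower at an unadjusted p under 0.05, at 71.8, 87.0 and 80.5 CPM in WT and 63.5, 61.8 and 67.2 CPM in Abca4KO, without overlap (-0.31, SE 0.09, adjusted p = 0.616 by edgeR). Gabpa, its DNA-binding partner, was at 58.0, 57.2 and 61.6 CPM in WT and 56.6, 51.1 and 53.5 CPM in Abca4KO, also without overlap (-0.13, SE 0.08). Gabpa shares 397 exon bases on the other strand with the member Atp5j, which held 12126 counts against 6330, so its count is uncertain too. Ppargc1a, a coactivator of mitochondrial genes, was at 54.1, 46.3 and 58.9 CPM in WT and 54.8, 39.5 and 43.4 CPM in Abca4KO, which overlap, and Nrf1 had a log2 fold change of 0.13 (SE 0.12).

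Counting limits touch a part of the members. Of the members with counts, 27 share exon bases with another counted gene, and for 17 of these the partner held over 10% of the member's count. A similar processed pseudogene with counts was found for 20 members, and for 7 of them (Ndufs5, Ndufa12, Atp5l, Cox7a2l, Atp5g1, Atp5h and Cox7c) it held over 10% of the member's count. For Ndufs5, the pseudogene BC002163 held 6332 counts against 1519 in the gene, so the level of Ndufs5 is not known from this table. Abca4 lies on chromosome 3, and the 3 members there, Ndufb5, Ndufc1 and Atp5f1, had log2 fold changes of 0.0032, 0.053 and -0.0048.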

How the data were processed

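Bulk RNA of mouse RPE was sequenced in 3 WT and 3 Abca4KO libraries, which the labels call biological replicates. The number of mice behind each library is not given here. The labels' protocols name the RNAqueous-Micro kit for isolation and, from 1 µg of RNA, the NEBNext Ultra kit for libraries. The deposited table holds whole-number counts of reads for each gene, which the authors left unscaled. The submitters' processing notes name STAR, HTSeq and mm10. Strand use and annotation release are not given in the sources used here. Coordinates are those of the deposited table, and 53585 of 54495 identifiers found in GENCODE M21 have unchanged coordinates there.

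Genes were filtered with filterByExpr (minimum count 10), scaled by TMM and tested with edgeR 4.0.16 in R 4.3.3 (2-sided quasi-likelihood test, no covariate), with Benjamini-Hochberg adjustment over 17340 genes and a threshold of 0.05. Log2 fold changes are Abca4KO minus WT, CPM uses TMM-scaled sizes, and the SE is the log2 fold change over the root of the F statistic. Totals of 17047286 to 19841307 counts set the precision, and the floor of 3 counts covers counting error alone. All pairs of libraries differed beyond counting noise (chi-square per degree of freedom at least 13.5).

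Named members were, in each complex, the 4 smallest p-values and the 2 highest levels per length, plus paralog sets and catalytic subunits. Ndufa9, Ndufb3, Ndufb7, Ndufs4, Ndufs7, Ndufv3, Cox5a, Cox5b, Cox6c, Cox7c, Atp5j, Atp5o, Atp5s, the core and accessory groups, the F1 head, members on chromosome 3, the neighbours of Ndufa12 and the named pathway genes lie outside it, picked once their values were known. Values of 1 member are not reported here on their own. Members and lists were chosen with earlier results of these data known. Alternatives were other scalings and filters, DESeq2 1.42.0, limma-voom (limma 3.58.1) with sample weights, a replicate block, a rod marker covariate and libraries left out. Similar transcripts were searched with blastn 2.17.0 (at least 95% identity over 100 bases).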

Additional observations from a re-analysis of the deposited data

How the results depend on the processing

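None of the 82 members passed the threshold in edgeR with other scalings, other filters on low counts, the replicate block, the rod covariate or any library left out, while DESeq2 and limma-voom each called 1, Ndufa12. The count of genes past the threshold, 8, was 19 with no filter, 114 in DESeq2, 31 in limma-voom, 22 with the rod covariate and 190 without WT 2 and Abca4KO 1, and between 3 and 11 with 1 library left out (4 without WT 1, 3 without Abca4KO 2, 3 without Abca4KO 3). The count of members higher at an unadjusted p under 0.05, 4, was 9 in limma-voom, 7 with the rod covariate and 9 without WT 2 and Abca4KO 1, and between 1 and 6 with 1 library left out (1 without WT 3, 1 without Abca4KO 2, 2 without Abca4KO 3). The count lower, 1, was 3 in limma-voom. The median of complex IV ranged from 0.057 to 0.14 with 1 library left out. Positive members numbered 50 to 66 with 1 library left out. The causes were not tested.

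The replicate block gave 2 members higher at an unadjusted p under 0.05, and 0 past the threshold. Same-numbered WT and Abca4KO libraries deviated from their group means with correlations of 0.167, 0.344 and -0.076. Any WT and Abca4KO pair lay between -0.367 and 0.344, so the pair numbered 2 was at the top of that range. Whether the numbers pair the libraries is not known, and the main fit used no pairing.

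For single named members, 568 values had the same direction and call under an alternative, 2 were newly called (Ndufa12) and 46 changed sign, all in members without a call. In limma-voom these were Sdhc (-0.018), Cox8a (0.018), Atp5b (-0.011), Cox7a1 (0.32), Ndufv1 (-0.0051) and Uqcrfs1 (0.024). Without WT 2 and Abca4KO 1 they were Sdha (-0.024), Cox8a (0.035), Atp5b (-0.032), Cox7a1 (0.082), Cox8b (-0.13), Atp5g3 (-0.011), Uqcrc1 (-0.026) and Uqcrfs1 (0.016). With the rod covariate it was Cox8b (-0.0017).

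With 1 library left out, log2 fold changes that changed sign ranged from -0.063 to 0.023 for Atp5a1, -0.022 to 0.056 for Atp5b, -0.018 to 0.14 for Atp5g2, -0.013 to 0.12 for Atp5g3, -0.0049 to 0.067 for Cox4i1, -0.014 to 0.84 for Cox6a2, -0.53 to 0.053 for Cox7a1, -0.0020 to 0.093 for Cox7b and -0.14 to 0.030 for Cox8a. The ranges were -0.086 to 0.15 for Cox8b, -0.13 to 0.039 for Ndufs1, -0.018 to 0.037 for Ndufv1, -0.027 to 0.11 for Sdha, -0.011 to 0.074 for Sdhc, -0.042 to 0.068 for Sdhd, -0.039 to 0.12 for Uqcr10, -0.024 to 0.048 for Uqcrc1, -0.051 to 0.026 for Uqcrfs1, -0.037 to 0.077 for Uqcrh and -0.11 to 0.015 for Uqcrq. At these depths and 3 libraries a group, changes near the median SE of 0.10 were not detectable.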
